A study of Homo sapiens with 12 samples.

Results

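The genes described here are 9 members of the systems that cut and remodel the matrix around cells: the matrix metalloproteinases MMP1, MMP2, MMP7, MMP9 and MMP14, their inhibitors TIMP1 and TIMP2, the urokinase plasminogen activator PLAU and its receptor PLAUR. They were taken by gene name from the annotation of the arrays, which holds 36337 gene names, and are carried by 11 probes. MMP2 and PLAU have 2 probes each. The arrays read messenger RNA of 3 lung adenocarcinoma lines. PC14CDDP is a cisplatin-resistant derivative of PC14, and A549 is a line of separate origin. Each line was transfected at 25 nM with 1 of 4 agents. Pre-miR-197 (premiR-197 in the labels) is a precursor that supplies the miRNA, set against NC (AllStar-NC). The inhibitor LNA-miR-197, an oligonucleotide of locked nucleic acid, was set against LNA-NC (LNA-miR-NC). All cells were grown in the same serum-containing medium and received the same lipid reagent, and no untransfected culture was used here. Each of the 12 cultures went to 1 array, so a transfection had the 3 lines as replicates and a line had its 4 differently transfected cultures. Every line is 1 culture stock, and P values between lines measure the spread between cultures of that stock.

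Metalloproteinases are secreted or membrane-bound enzymes that depend on zinc and are made as inactive precursors. MMP1 is an interstitial collagenase, MMP2 and MMP9 are the gelatinases, MMP7 is matrilysin, a small enzyme of epithelial cells, and MMP14 is a membrane-anchored collagenase that activates pro-MMP2 at the cell surface with TIMP2 as an adaptor. TIMP1 and TIMP2 bind and block the active enzymes. PLAU turns plasminogen into plasmin when it is held at the surface by PLAUR, and plasmin in turn degrades matrix and can activate metalloproteinase precursors. The system is known for its part in invasion by carcinoma cells, and AP-1, ETS and Sp1 family factors are known to act on several of its promoters.

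The sequences of the transfected miRNA and of the probes show what was supplied and what was read. Both mature arms of miR-197 are given below in the RefSeq sequence of GRCh38.p14 (chr1:109598940-109598961 and chr1:109598901-109598923, plus strand), with the seed, bases 2 to 8, in capitals. The labels do not say which arm the LNA oligonucleotide was made against.
hsa-miR-197-3p: uUCACCACcuucuccacccagc
hsa-miR-197-5p: cGGGUAGAgagggcagugggagg

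The first 30 of 60 bases are shown for the probes that carry the largest differences between lines and for the genes with 2 probes, in lower case and in the order the array design gives them. Coordinates are those of the array annotation on hg19, for which no exon annotation was used here. The first MMP1 and PLAU probes were each spotted 10 times on every array, as was that of MMP9.
MMP1, chr11:102660697-102660756: acatgtgcagtcactggtgtcaccctggat
MMP7, chr11:102394029-102394088: ttgggtatgggacattcctctgatcctaat
MMP14, chr14:23315791-23315850: ggactgccaagccaccctaagaccttggga
PLAU, 10-spot probe, chr10:75677050-75677109: ctgtgaccagcactgtctcagtttcacttt
PLAU, second probe, chr10:75674614-75674673: tataacgatccccagtttggcacaagctgt
MMP2, first probe, chr16:55540518-55540577: gcacttttcacgtgtcacctattttaacct
MMP2, second probe, chr16:55423671-55423730: tttctttcatgtacctggaccagtagttca

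The 2 probes filed under MMP2 lie 116.8 kb apart, whereas RefSeq gives MMP2 a length of 27.9 kb on GRCh38.p14, so both cannot lie within that gene. The second probe was well above background on 0 of 4 arrays in each line, was not tested, and MMP2 below means the first probe. The remaining 10 probes passed the filter, which asked for 3 or more arrays well above background, and with them all 9 genes. For MMP2 this rested on A549 and PC14 and for MMP7 on A549 alone, so that MMP7 had to differ between A549 and the other lines. Levels are log2 ratios of the processed signal to that at the array's 75th percentile (406.6 to 478.7 signal units), where they are 0, and levels of different probes were not compared with each other. A level is a mean over a culture, so that fewer expressing cells and less RNA per cell cannot be told apart.

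The share of probes well above background ran from 55.8% to 63.0% per array and no spot was saturated. Of 8 epithelial markers, 8 were well above background on all 4 arrays of A549, 6 in PC14 and 5 in PC14CDDP, where CDH1 and EPCAM were above background on 0 arrays. Their summed signal was 1180 to 1340 times the 75th percentile in A549, 396 to 520 times in PC14 and 318 to 458 times in PC14CDDP. Of 8 fibroblast markers 1, COL1A1, was above background on all 4 arrays of each line, with a sum of 0.12 to 1.71 over the list. Of 7 leukocyte markers on the array, 4 in A549 and 5 in each of the other lines were above background on all 4 arrays (sum 2.65 to 6.97), and of 6 endothelial markers 2, 4 and 3 were (sum 0.337 to 1.42). The part of these differences in the results below was not tested. All A549 arrays lay on 1 slide and the arrays of PC14 and PC14CDDP on another, so line and slide cannot be told apart for A549. PC14 and PC14CDDP shared a slide, with PC14 in row 1 and PC14CDDP in row 2. Row and line therefore cannot be told apart between these lines. Each transfection also took the same column of the slide in every line, so that column and transfection cannot be told apart.

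**Figure D1:**
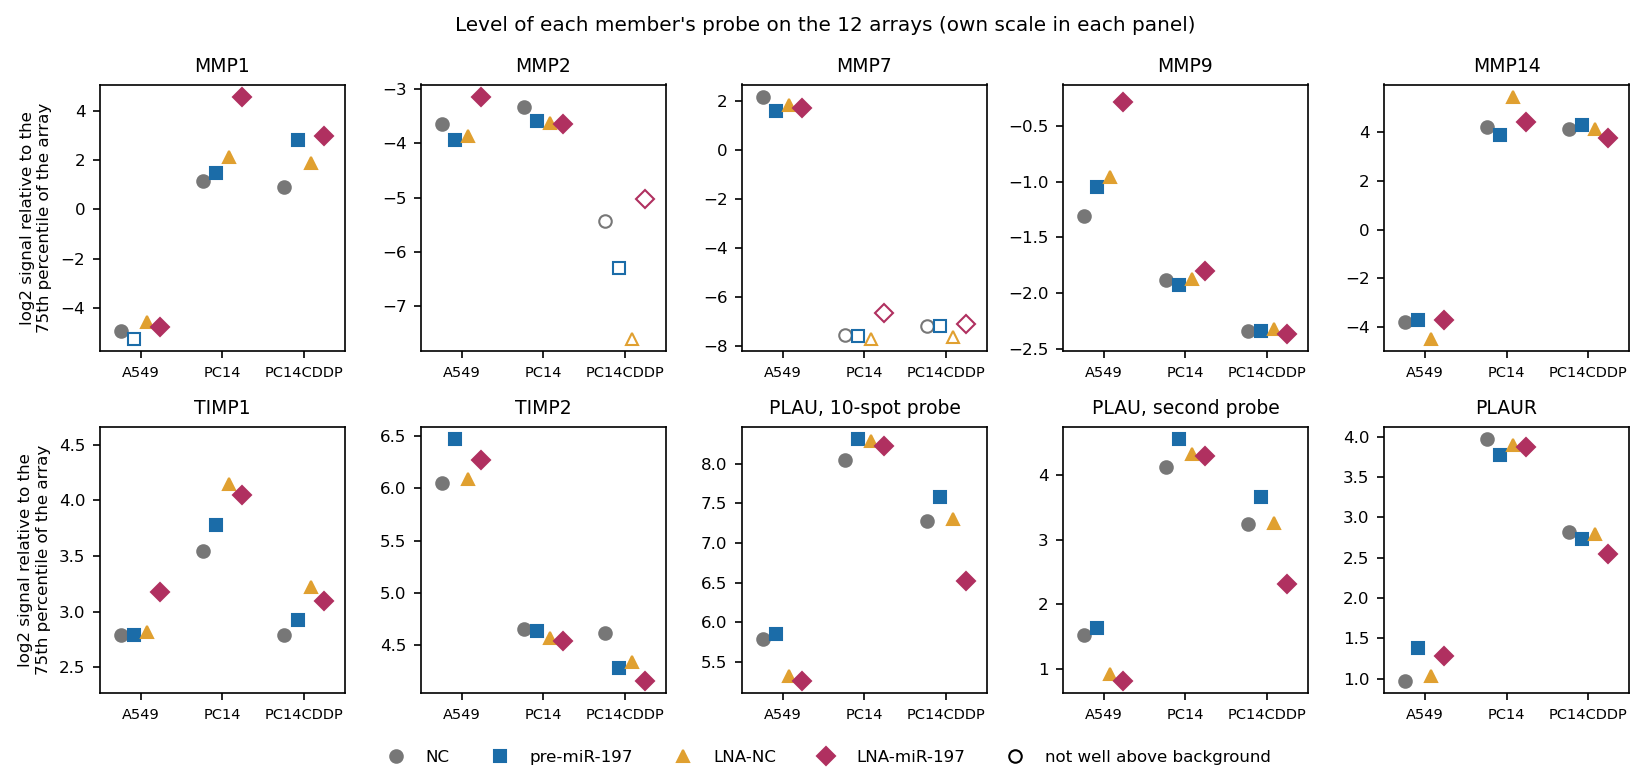
Log2 ratio of the signal of the 10 tested probes to the array's 75th percentile (y axis, own scale in each panel) on the 12 arrays, by line (x axis) and transfection (symbol and colour). Open symbols mark arrays on which the probe was not well above background, such as all 8 arrays of PC14 and PC14CDDP for MMP7.

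The 9 genes formed different patterns in the 3 lines. A549 held MMP7 and the higher level of TIMP2, while PC14 and PC14CDDP held MMP1 and MMP14 at levels far above those of A549. PLAU and PLAUR were also above A549 in both lines, by 2.94-fold to 8.61-fold over their probes. Between PC14 and its resistant derivative the differences were smaller. Of the 10 probes, 6 were lower in PC14CDDP and 0 were higher by limma with an adjusted P under 0.05, where 48.8% of all 33712 probes tested were called in either direction. The 6 were the probes of MMP2, MMP9, TIMP1 and PLAUR and both probes of PLAU. The median difference over the 10 probes was -0.67 on the log2 scale, against 0.06 over all probes.

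The urokinase pair differed between PC14 and PC14CDDP on every transfection. PLAUR, the surface receptor of urokinase, was measured in PC14 at 3.98 with NC, 3.78 with pre-miR-197, 3.90 with LNA-NC and 3.87 with LNA-miR-197, and in PC14CDDP at 2.82, 2.74, 2.79 and 2.54 in the same order. The 4 arrays of each line lay close together and the lines did not overlap. PLAUR was lower by 1.16 in PC14CDDP (SE 0.12, limma adjusted P = 0.000129), a 2.23-fold difference. In A549 it stood lower still, at 0.97, 1.38, 1.03 and 1.28.

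PLAU, the protease itself, was read by 2 probes. With the 10-spot probe it was measured in PC14 at 8.05 with NC, 8.32 with pre-miR-197, 8.28 with LNA-NC and 8.23 with LNA-miR-197. In PC14CDDP the same probe gave 7.28, 7.58, 7.30 and 6.52, and in A549 5.78, 5.85, 5.32 and 5.26. All PC14 arrays were above all PC14CDDP arrays, and these above all A549 arrays. The difference of PC14CDDP from PC14 was -1.05 (SE 0.17, limma adjusted P = 0.00137) with this probe and -1.21 (SE 0.20, limma adjusted P = 0.00134) with the second probe, which are 2.07-fold and 2.31-fold lower. After the mean of each line was removed, the 2 PLAU probes, read on the same 12 arrays, correlated with r = 0.99. The SD between the 9 or 10 spots kept on an array was 0.03 to 0.06 for PLAU, less than the differences between lines. Both urokinase genes thus had the same order of lines, PC14 above PC14CDDP above A549, and each neighbouring pair of lines differed beyond the spread between arrays.

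The inhibitors behaved differently from each other. TIMP1 was measured in PC14 at 3.54 with NC, 3.78 with pre-miR-197, 4.14 with LNA-NC and 4.05 with LNA-miR-197. In PC14CDDP it was 2.79, 2.92, 3.22 and 3.10, below every array of PC14, and the difference was -0.87 (SE 0.11, limma adjusted P = 0.000276). In A549 it was 2.79, 2.79, 2.81 and 3.17, and A549 and PC14CDDP overlapped (difference -0.12, 95% interval -0.36 to 0.13, limma adjusted P = 0.355). TIMP2 was instead highest in A549, at 6.05, 6.47, 6.09 and 6.27, against 4.65, 4.64, 4.57 and 4.54 in PC14. PC14CDDP gave 4.62, 4.29, 4.34 and 4.15, lower than PC14 on 4 of 4 transfections but overlapping with it. That difference, -0.25 (95% interval -0.54 to 0.04), was not called by limma (adjusted P = 0.138), and was called after quantile normalization (-0.38, limma adjusted P = 0.0399). A549 was above PC14 by 1.62 (SE 0.13, limma adjusted P = 9e-06), a 3.08-fold difference.

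Among the metalloproteinases, MMP9 and MMP2 were lower in PC14CDDP than in PC14. MMP9 ran from -1.93 to -1.81 over the 4 arrays of PC14 and from -2.37 to -2.32 over those of PC14CDDP, with no overlap and a difference of -0.47 (SE 0.16, limma adjusted P = 0.0429). The fit pools the spread of the lines, and the SD of MMP9 was 0.05 in PC14, 0.02 in PC14CDDP and 0.44 in A549, where it was -1.31 with NC, -1.05 with pre-miR-197, -0.96 with LNA-NC and -0.28 with LNA-miR-197. The call was lost without the arrays of NC (limma adjusted P = 0.0833), of pre-miR-197 (0.119) or of LNA-NC (0.13), and held with the arrays of PC14 and PC14CDDP alone (0.00648). MMP9 was higher in A549 than in either line, by 0.97 (SE 0.16, limma adjusted P = 0.000831) over PC14 and by 1.44 (SE 0.16, limma adjusted P = 7.06e-05) over PC14CDDP.

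MMP2 was a dim probe. Its signal was 28.0 to 53.5 units in A549 and 38.2 to 42.9 in PC14, well above background on all 8 arrays, and 2.28 to 12.4 in PC14CDDP, where it was above background on 0 of 4 arrays. PC14 was at least 3.24-fold above PC14CDDP and A549 at least 3.04-fold. Such a bound sets the brighter line against a floor for the dim one, which on each array was the dimmest signal still called well above background, or the signal of the probe where that was higher. The limma fit used no floor and took the signals of PC14CDDP as measured (adjusted P = 0.000697 against PC14 and 0.000425 against A549). A549 and PC14 overlapped, with a difference of -0.09 (95% interval -0.95 to 0.76, limma adjusted P = 0.836).

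MMP1 and MMP14, both of which cleave fibrillar collagen, did not separate PC14CDDP from PC14. MMP1 gave a signal of 973 units with NC, 1337 with pre-miR-197, 2106 with LNA-NC and 11632 with LNA-miR-197 in PC14, which is 1.17, 1.49, 2.15 and 4.60 on the log2 scale. In PC14CDDP the signals were 787, 3352, 1656 and 3285 units, or 0.91, 2.83, 1.89 and 3.01. The arrays of each of these lines thus spread over more than 2 log2 units, while the SD between the 10 spots of an array was 0.05 to 0.09. The difference between the lines was -0.19 (95% interval -1.44 to 1.05, limma adjusted P = 0.795). In A549 the signal was 10.9 to 19.2 units and above background on 3 of 4 arrays, all but that of pre-miR-197. With that array in the mean of A549 at its measured signal, PC14 was 154.5-fold and PC14CDDP 135.1-fold above A549 (limma adjusted P = 6.96e-06 and 6.85e-06).

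MMP14 was measured at 4.23 with NC, 3.87 with pre-miR-197, 5.46 with LNA-NC and 4.41 with LNA-miR-197 in PC14, and at 4.13, 4.29, 4.14 and 3.77 in PC14CDDP. The ranges overlapped and the difference was -0.41 (95% interval -1.21 to 0.39, limma adjusted P = 0.367). In A549 MMP14 was between -4.51 and -3.73, which is 20.5 to 35.4 signal units. PC14 was 345.5-fold above A549 (limma adjusted P = 2.41e-07) and PC14CDDP 260.1-fold (limma adjusted P = 2.69e-07).

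MMP7 showed the opposite pattern. In A549 its signal was 1940 units with NC, 1282 with pre-miR-197, 1669 with LNA-NC and 1555 with LNA-miR-197, whereas in PC14 and PC14CDDP it was 2.21 to 4.68 units and above background on 0 of 8 arrays. A549 was at least 183.9-fold above PC14 and at least 136.8-fold above PC14CDDP, with the same kind of bound as for MMP2. No P value is given, since the probe was tested because of its level in A549. PC14 and PC14CDDP were both below background for MMP7, and no fold is given between them.

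**Figure D2:**
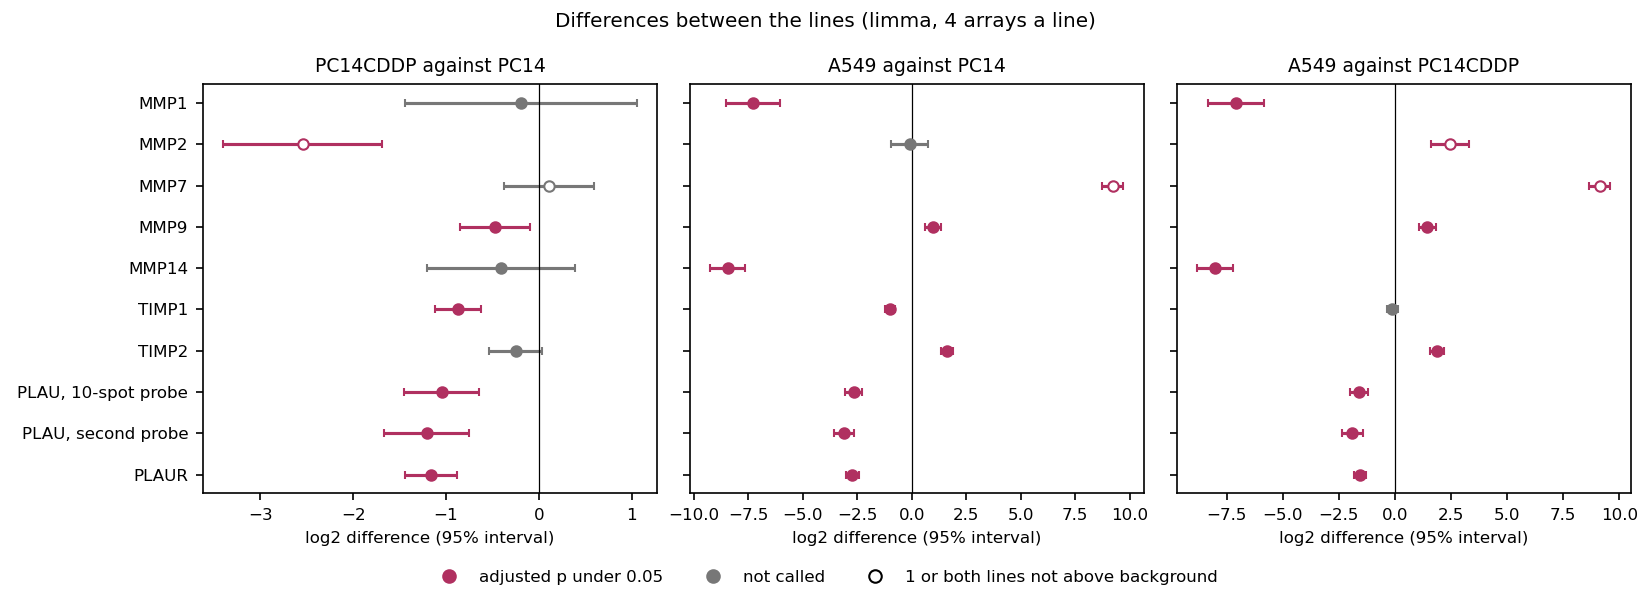
Log2 differences between lines with 95% intervals for the 10 tested probes (limma, 4 arrays a line, x axis of its own in each panel), red where the adjusted P was under 0.05 and open where the probe was above background on 0 arrays of 1 or both lines. PLAU, PLAUR and TIMP1 lay left of 0 in PC14CDDP against PC14, while MMP1 and MMP14 lay at -7 or below in both comparisons of A549. MMP7, which passed the filter through A549 alone, had to differ in both comparisons of A549.

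In all, 9 of the 10 probes were called between A549 and PC14, where 67.4% of all probes were called. MMP7, MMP9 and TIMP2 were higher in A549 and MMP1, MMP14, TIMP1, PLAUR and both PLAU probes were lower. Between A549 and PC14CDDP 9 probes were called against 70.0% of all probes, with MMP2, MMP7, MMP9 and TIMP2 higher in A549 and MMP1, MMP14, PLAUR and both PLAU probes lower. Both counts include MMP7, which passed the filter through A549 alone and so had to differ. On 5 of the 6 members whose brightest probe was above background on all 12 arrays, all but TIMP1, the level was compared with that of every other such probe by Pearson's r over the 12 arrays. These r values are set mostly by the differences between the 3 lines. The probes most like PLAUR were those of HMGXB4, SLC25A36 and CDC25C (r = 0.99 each), those most like PLAU were EIF2B5, EIF4ENIF1 and MFN1 (r = 0.99 each), and those most like MMP9 were CXCL16, EPS8L2 and TP53I3 (r from 0.97 to 0.99). MMP14 was most like DHX16, VCY and MRPL15 (r = 0.995 each) and TIMP2 most like LOC100287482, MTRNR2L10 and XLOC_l2_000417 (r = 0.99 each).

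Promoter sequence of RefSeq (GRCh38.p14) was at hand for 5 of the 9 genes, MMP7, MMP14, TIMP1, PLAU and PLAUR. The windows of 4 are shown. MMP7 and MMP14 were on in some lines and dim in others, and PLAUR and TIMP1 were lower in PC14CDDP than in PC14. PLAU was lower there too, and its 2 windows are described below without their sequence. Each window is the 250 bases before the transcription start, written 5′ to 3′ on the strand of the gene. Capitals mark matches, on either strand, to the AP-1 motif TGANTCA, the Sp1 motif GGGCGG, the TATA box TATAAA and the TCF motif CTTTGA.
MMP7, chr11:102530748-102530997, minus strand: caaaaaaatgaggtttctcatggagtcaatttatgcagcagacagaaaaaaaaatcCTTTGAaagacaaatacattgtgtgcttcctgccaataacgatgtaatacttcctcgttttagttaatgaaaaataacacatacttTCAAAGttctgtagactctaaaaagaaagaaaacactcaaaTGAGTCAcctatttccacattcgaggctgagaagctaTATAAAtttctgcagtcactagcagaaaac
MMP14, chr14:22836335-22836584, plus strand: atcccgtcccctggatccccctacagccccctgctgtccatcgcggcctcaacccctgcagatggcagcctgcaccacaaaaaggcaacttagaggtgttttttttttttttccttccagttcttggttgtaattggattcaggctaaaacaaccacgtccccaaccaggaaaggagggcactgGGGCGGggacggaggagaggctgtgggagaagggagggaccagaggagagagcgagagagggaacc
PLAUR, chr19:43670170-43670419, minus strand: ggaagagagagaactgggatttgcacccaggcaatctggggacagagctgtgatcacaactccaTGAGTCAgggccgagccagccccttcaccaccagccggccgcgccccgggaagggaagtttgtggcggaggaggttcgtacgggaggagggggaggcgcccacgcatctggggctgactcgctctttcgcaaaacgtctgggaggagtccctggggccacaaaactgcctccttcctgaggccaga
TIMP1, chrX:47582186-47582435, plus strand: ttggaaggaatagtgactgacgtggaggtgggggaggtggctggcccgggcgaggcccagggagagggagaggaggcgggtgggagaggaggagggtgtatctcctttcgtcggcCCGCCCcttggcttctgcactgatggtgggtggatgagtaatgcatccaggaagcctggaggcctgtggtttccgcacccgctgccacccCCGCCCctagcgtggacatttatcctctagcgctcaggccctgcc

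The MMP7 window held 1 AP-1 match ending 61 bases before the start, 1 TATA match and 2 TCF matches, and its GC content was 33.6%. The PLAUR window held 1 AP-1 match at a GC content of 63.2%. The AP-1 letters occurred in 6.6% of the 35116 RefSeq promoter windows of this length, the TATA letters in 10.7% and the TCF letters in 11.2%. The windows of MMP14 and TIMP1 held 1 and 2 Sp1 matches, and of the 2 windows listed for PLAU 1 held 3 Sp1 matches and the other held 0 of any motif. The Sp1 letters occurred in 42.6% of all windows. A match of letters is a description of the sequence and was not tested against binding.

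The arrays were made to follow miR-197, and the transfections were compared within the lines. None of the 10 probes was called after pre-miR-197 against NC (0 of 10 by limma, against 0.0504% of all probes), and 0 of 10 had an unadjusted P under 0.05. After LNA-miR-197 against LNA-NC 0 of 10 were called, against 7.91% of all probes, and 1, MMP2, had an unadjusted P under 0.05. For LNA-NC against NC, a comparison of the 2 controls, 0 of 10 were called against 0.481% of all probes, and 1, TIMP1, had an unadjusted P under 0.05. The difference between the pre-miR-197 and LNA-miR-197 effects was called for 0 of 10, against 0.0475% of all probes, and 1, MMP2, had an unadjusted P under 0.05. Over all 33712 probes tested, the unadjusted P was under 0.05 for 5211 after pre-miR-197, 9226 after LNA-miR-197 and 4572 for LNA-NC against NC. For the difference between the pre-miR-197 and LNA-miR-197 effects it was under 0.05 for 6135. The methods' t-test called 0 of 10 in each of the 3 comparisons of transfections, with or without adjustment. It did not pair the arrays by line, so the differences between lines entered its error and its result adds little. LNA-NC against NC shares its NC arrays with the first of these comparisons and its LNA-NC arrays with the second.

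In PC14 and PC14CDDP, MMP1 had the widest spread between transfections of the probes above background there (SD 1.56 and 0.97). On the log2 scale the NC array was the lowest of the 4 and the LNA-miR-197 array the highest in both lines. LNA-miR-197 was above LNA-NC by 2.45 in PC14 and by 1.13 in PC14CDDP and below it by 0.20 in A549. The mean difference was 1.12 (95% interval -0.32 to 2.57, limma adjusted P = 0.289), so that no change and a rise of several fold both lie within the interval. Pre-miR-197 was also above NC in these lines, by 0.32 in PC14 and 1.92 in PC14CDDP (mean over 3 lines 0.63, 95% interval -0.81 to 2.08, limma adjusted P = 0.678). LNA-NC alone was above NC in 3 of 3 lines, by 0.35, 0.99 and 0.98 in A549, PC14 and PC14CDDP (mean 0.77, 95% interval -0.67 to 2.21, limma adjusted P = 0.65).

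PLAU was the gene whose 2 probes could be set side by side. LNA-miR-197 against LNA-NC gave -0.07, -0.06 and -0.78 in A549, PC14 and PC14CDDP with the 10-spot probe and -0.11, -0.03 and -0.95 with the second. Both probes thus placed the difference in PC14CDDP, and neither mean was called (-0.30, 95% interval -0.76 to 0.16, and -0.36, 95% interval -0.89 to 0.17, limma adjusted P = 0.378 and 0.352). Pre-miR-197 against NC was above 0 in 3 of 3 lines with both probes, at 0.07, 0.27 and 0.29 with the 10-spot probe (mean 0.21, 95% interval -0.25 to 0.67, limma adjusted P = 0.666).

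MMP14 went in opposite directions in different lines. With LNA-NC against NC the values were -0.72 for A549, 1.23 for PC14 and 0.01 for PC14CDDP, and with LNA-miR-197 against LNA-NC they were 0.78, -1.05 and -0.37. Both comparisons use the same LNA-NC arrays, which were the lowest of A549 and the highest of PC14. The means were 0.18 (95% interval -0.74 to 1.09, limma adjusted P = 0.892) and -0.21 (95% interval -1.13 to 0.71, limma adjusted P = 0.774). TIMP1 was higher with LNA-NC than with NC in 3 of 3 lines, by 0.02, 0.60 and 0.44 (mean 0.35, 95% interval 0.07 to 0.64, unadjusted P = 0.0205, limma adjusted P = 0.269).

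MMP2 after LNA-miR-197 stood at 0.74 relative to LNA-NC in A549 and -0.02 in PC14, the lines where the probe was above background. The mean over 3 lines, 1.10 (95% interval 0.11 to 2.09, limma adjusted P = 0.145), also took in PC14CDDP, where the probe was below background. Without PC14CDDP the mean was 0.36 (limma adjusted P = 0.542). MMP7 in A549, the 1 line that held it, was lower with pre-miR-197 than with NC by 0.60 and lower with LNA-miR-197 than with LNA-NC by 0.11, with 1 array each and no replicate. The remaining means were small. MMP9, PLAUR and TIMP2 differed by -0.01 to 0.23 after LNA-miR-197 and by 0.02 to 0.07 after pre-miR-197, and the 95% intervals of PLAUR, -0.33 to 0.32 after LNA-miR-197 and -0.28 to 0.37 after pre-miR-197, leave room for changes in either direction.

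**Figure D3:**
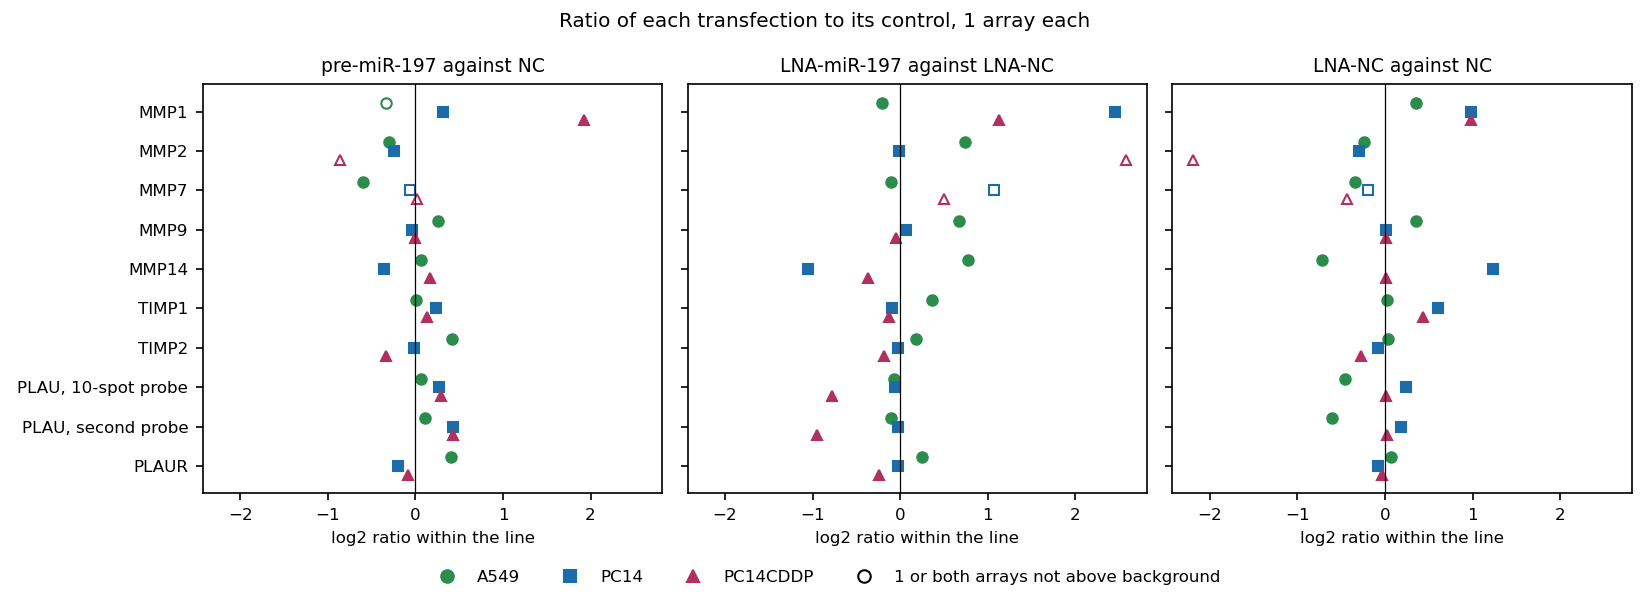
Log2 ratio of each transfection to its control within A549 (circles), PC14 (squares) and PC14CDDP (triangles), 1 array each, for the 10 tested probes. Open symbols mark ratios with an array on which the probe was not well above background, and MMP1 in PC14 lies at 2.45 for LNA-miR-197 against LNA-NC.

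Other genes of matrix proteolysis were read in the same way, from lists of their own. Between PC14CDDP and PC14, 6 of 14 tested probes of other metalloproteinases were called (42.9%, against 48.8% of all probes), 3 higher and 3 lower, with a median of 0.06, the same as over all probes. MMP16, a membrane-type enzyme, was at least 7.85-fold higher in PC14CDDP and above background on 0 of 4 arrays of PC14 and of A549. It passed the filter through PC14CDDP alone, so it had to differ and no P value is given. The count of 6 includes it. MMP15, another membrane-type enzyme, was lower by 2.06 (SE 0.12), MMP24 by 0.72 (SE 0.12) and MMP11 or stromelysin-3 by 1.32 (SE 0.19), the last with 2 of 4 arrays of PC14CDDP above background. MMP23B was higher by 0.83 (SE 0.20). The third that was higher, named after its value was seen, was MMP19, by 0.23 (SE 0.07) with 1 of its 2 probes.

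Of 10 tested probes of other protease inhibitors, 7 were called (70.0%, against 48.8% of all probes), 6 lower and 1 higher in PC14CDDP, with a median of -1.75. The count and the median include SERPINB5 and TFPI2, both above background on 0 arrays of PC14CDDP. The median also includes probes above background on 0 arrays of both lines. SERPINB5, known as maspin, was at least 90.5-fold lower and above background on 0 of 4 arrays of PC14CDDP, 1 of A549 and 4 of PC14. It too passed the filter through its level in 1 line, PC14, and no P value is given. SPINT2, an inhibitor of hepatocyte growth factor activator and of other surface serine proteases, was lower by 3.29 (SE 0.28). SERPINE2, which inhibits urokinase and thrombin, was lower by 2.77 (SE 0.18), and RECK, a membrane-bound inhibitor of metalloproteinases, by 2.45 (SE 0.17) with 1 of its 2 probes. The second RECK probe was at -0.59 (SE 0.22, limma adjusted P = 0.0524). TFPI2 was above background on 0 arrays of PC14CDDP and 2 of PC14 and is given no fold.

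Among 14 tested probes for plasminogen activation and its surface partners, 6 were called (42.9%, against 48.8% of all probes), 4 higher and 2 lower. PLAT, the tissue plasminogen activator, was higher in PC14CDDP by 1.83 (SE 0.22), opposite to the direction of PLAU. ITGB3 was higher by 1.83 (SE 0.23) and ITGB5 lower by 3.75 (SE 0.31), both beta chains of integrins that bind vitronectin. S100A10, a plasminogen receptor subunit, was lower by 0.82 (SE 0.14). LRP1, which clears protease and inhibitor complexes, was higher by 0.78 (SE 0.14) with 1 of its 2 probes and at 0.03 (SE 0.24) with the other. The fourth that was higher, named after its value was seen, was BSG or basigin, by 0.75 (SE 0.09).

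Of 22 tested probes of other matrix and surface proteases, 11 were called (50%, against 48.8% of all probes), 5 higher and 6 lower. ADAMTS1, which cleaves proteoglycans, was above background on 0 arrays of PC14 and at least 10.2-fold and 3.47-fold higher in PC14CDDP with its 2 probes. Both passed the filter through PC14CDDP alone and so had to differ, and the count of 11 includes them. ADAM19 was lower by 3.11 (SE 0.18) and, with a second probe above background on 0 arrays of PC14CDDP, at least 1.30-fold lower. The lysosomal protease CTSB was lower by 2.02 (SE 0.11) and heparanase, HPSE, was higher by 1.82 (SE 0.27) with 1 of its 2 probes. Of 19 probes for transcription factors known to act on these promoters, 9 were called (47.4%, against 48.8% of all probes), 6 higher and 3 lower, with a median of 0.05. ETS1 was higher in PC14CDDP by 1.50 (SE 0.23), and the AP-1 subunits FOSB, FOS, JUNB and FOSL1 were higher by 1.16 (SE 0.34), 1.14 (SE 0.11), 0.93 (SE 0.14) and 0.84 (SE 0.20). The 3 that were lower, named after their values were seen, were all of the ETS family: ETV1 by 0.74 (SE 0.17) with 1 of its 4 probes, above background on 2 of 4 arrays of PC14CDDP, ETS2 by 0.54 (SE 0.15) and ETV4 by 0.45 (SE 0.14).

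**Figure D4:**
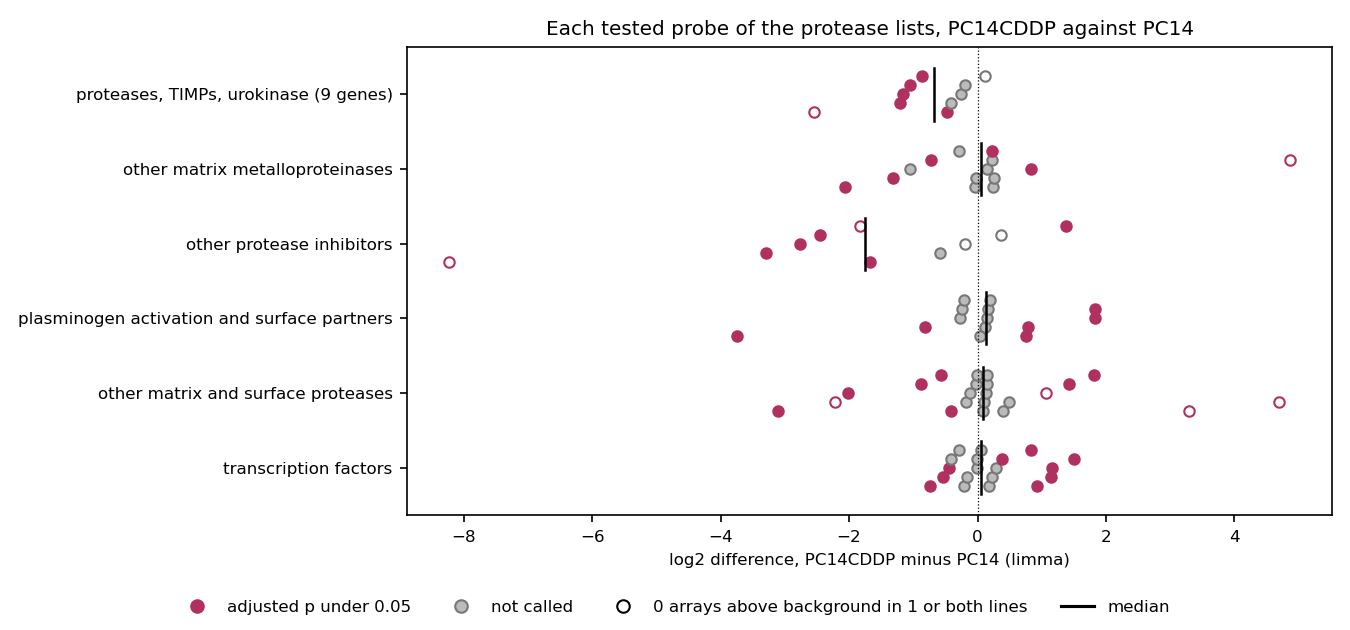
Log2 difference between PC14CDDP and PC14 (x axis, limma) for each tested probe of the 9 genes and of 5 further lists (y axis), red where the adjusted P was under 0.05, open where 0 arrays of 1 or both lines were above background, with the median of each list as a bar. The medians lie at -0.67 for the 9 genes and at -1.75 for the other protease inhibitors, and both include probes drawn open.

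In the transfections few probes of these lists were called. After LNA-miR-197 against LNA-NC limma called 3 of the 79 probes of the 5 lists, against 7.91% of all probes. The unadjusted P was under 0.05 for 18 of the 79, against 9226 of all 33712 probes tested. Each of the 3 called probes was 1 of at least 2 probes of its gene. LRP1 was higher by 0.69 (SE 0.16, limma adjusted P = 0.0425) with 1 probe, while its other probe went the opposite way on average, at -0.31 (SE 0.28, limma adjusted P = 0.515), with 0.48 in A549, -0.56 in PC14 and -0.85 in PC14CDDP. ADAM10, a sheddase, was higher by 0.63 (SE 0.15, limma adjusted P = 0.0424) and its other probe was at 0.43 (SE 0.19, limma adjusted P = 0.183). ETV1 was lower by 0.81 (SE 0.20, limma adjusted P = 0.0482) with a probe above background on 2 of 3 arrays of LNA-miR-197, and its other 3 probes were at -0.83, -0.52 and -0.09, none of them called. By list, the unadjusted P was under 0.05 for 1 of 14 probes of other metalloproteinases, 1 of 10 of other inhibitors, 4 of 14 of plasminogen activation, 6 of 22 of the other proteases and 6 of 19 of the transcription factors. For pre-miR-197 against NC and for LNA-NC against NC, limma called 0 of the 79 probes of the 5 lists, with an unadjusted P under 0.05 in 15 and 8 of them, respectively. Over all 33712 probes tested, the unadjusted P was under 0.05 for 5211 and 4572 in these comparisons.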

How the data were processed

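The authors scanned 12 one-dye (Cy3) Agilent 60-mer arrays with Feature Extraction 10.7.3.1, per the labels, and deposited for each spot an intensity (mean signal, median local background, and a processed signal that is background-subtracted and not scaled between arrays) and other columns, the software's flags. A deposited table of intensity equals the processed signal on all 62976 spots of each array. Supplementary methods were not read here, and no normalization is given in the sources used here.

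Control and outlier spots were left out and spots of a probe were averaged, over 50599 probes, of which 106 lacked a value on some array. Log2 signals were scaled to the 75th percentile of each array. Probes well above background (over 0.5 of their kept spots) on at least 3 arrays were tested (33712), without collapsing probes to genes. Transfection and cell line were terms of 1 model over the 12 arrays, fitted with limma 3.58.1 (R 4.3.3), and probes with a Benjamini-Hochberg P under 0.05 over all probes tested were called. The cell line pairs each transfection with its control: deviations from the transfection means correlated within a line with r of at least 0.845. The number of arrays limits the precision. The fit was tested on simulated data.

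All probes of the 9 genes are reported. Other genes were named by list, at most the 5 largest called differences per list. The values of some other genes that this rule would name are not reported here. The genes and lists were chosen with earlier results of these data known. Alternatives were quantile normalization, normexp (offset 50) on all spots, the deposited table, other filters, the brightest or mean probe, other terms, fewer arrays, the robust prior, the methods' t-test and each group left out. Python 3.11.15, pandas 2.3.3, numpy 2.4.6 and matplotlib 3.10.9 were used. The number of columns from other samples was 0.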

Additional observations from a re-analysis of the deposited data

Results flagged for a closer look

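Among the 26 sets of 4 arrays of a line on which a probe was above background, 2 had an array whose gap to the nearest other, as a ratio of the whole range, passed Dixon's 95% critical value. Chance gives about 1 in 20. MMP14 was low on the LNA-NC array of A549 (ratio 0.914), and TIMP1 was high on the LNA-miR-197 array of A549 (ratio 0.935).

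Some transfections moved a probe by at least 1.2-fold in opposite directions in different lines, with 1 array each, and the difference between the lines was not tested. TIMP2 after pre-miR-197 against NC was 0.42 in A549 and -0.33 in PC14CDDP. For MMP14, LNA-miR-197 against LNA-NC gave 0.78 for A549, -1.05 for PC14 and -0.37 for PC14CDDP, and LNA-NC against NC gave -0.72 for A549 and 1.23 for PC14.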

How the results depend on the processing

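The counts of called probes among the 10 stayed within 1.5 times in every alternative run. Of 1055 values of single probes, 1046 kept their direction where called and their side of the threshold, 7 lost the call, 2 gained it and 0 reversed, while 31 uncalled values changed sign. All 7 losses were MMP9 in PC14CDDP against PC14: quantile normalization (limma adjusted P = 0.0736), normexp (0.084), no filter on dim probes (0.0606), no transfection term (0.0584), and the arrays of NC (0.0833), pre-miR-197 (0.119) or LNA-NC (0.13) left out. The gains were TIMP2 in that comparison, with quantile normalization (0.0399 by limma) and by the methods' t-test without adjustment. The cause was not tested. Normexp moved the share of higher calls among all probes from 23.5% to 36.5% in pre-miR-197 against NC and from 69.1% to 81.7% in LNA-NC against NC. Without the cell line term, that is with no replicate block, 0 of 10 probes were called in each comparison of transfections. In that fit the differences between lines entered the error, so it could hardly call a probe. Signals close to background limit MMP2 in every line, MMP1 and MMP14 in A549, and MMP7 outside A549.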
